A study of Homo sapiens with 6 samples.

Results

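The nuclear receptors and the NCOR-HDAC3 corepressor genes were followed in MDA-MB-231 cells, a human breast carcinoma line of the triple-negative kind, with and without a knockout of NR1D1. The genes were given as a list of 46 names, made up of 43 receptors and 3 coregulators (NCOR1, HDAC3 and PPARGC1A). A member counted as measured where a probe set carried its symbol, and no other symbol, in the platform annotation used here. That held for 9 of the 46, each with 1 probe set, out of 14884 genes with a named probe set. The 9 are the receptors PPARA, PPARD, PPARG, ESR2, ESRRA, ESRRB, ESRRG and RORB, and the deacetylase HDAC3. The label of the list therefore applies only in part, since HDAC3 is its one measured corepressor gene and NCOR1 was not analysed here.

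The targeted gene NR1D1 and its paralog NR1D2 are among the 37 members without a probe set named for them alone. The knockout is therefore left without a check at the level of RNA here. The others are the thyroid hormone and retinoid receptors THRA, THRB, RARA, RARB, RARG, RXRA, RXRB and RXRG, the lipid, bile acid, xenobiotic and vitamin D receptors NR1H2, NR1H3, NR1H4, NR1I2, NR1I3, VDR, HNF4A and HNF4G, the orphan receptors NR2C1, NR2C2, NR2E1, NR2E3, NR2F1, NR2F2, NR2F6, NR5A1, NR5A2, NR6A1, NR0B1 and NR0B2, the corticosteroid receptors NR3C1 and NR3C2, the inducible receptors NR4A1, NR4A2 and NR4A3, and the coregulators NCOR1 and PPARGC1A. These 37 genes were not analysed here.

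Both groups, 3 arrays labelled control and 3 labelled NR1D1 KO, carried the same exposure of 200 µM hydrogen peroxide for 72 h, so a difference between them may have been present before the peroxide. The comparison asks which transcripts differ between the genotypes under oxidative stress. The labels call the samples of a group biological replicates and name no guide, clone or culture, so the p-values rest on the spread between arrays and cover neither other clones nor other guides. Array medians lay between 5.18 and 5.22 on the deposited log2 scale, and the number of arrays limits the precision. All 6 measured markers of the mesenchymal-like line (VIM, CD44, AXL, MSN, FOSL1 and S100A4) stood between 8.11 and 11.93, while the 9 measured markers of endothelial cells, fibroblasts and hepatocytes stood at or below 6.22. Of these 9, KDR rose by 0.50 (log2, limma adjusted p of 0.00628). Of 3 measured leukocyte markers, CD14 and LYZ read at most 4.81, while the lysosomal CD68 read 10.65 and fell by 0.45 (adjusted p of 0.0167). The 8 measured luminal breast markers, listed as low in this line, stood between 5.01 and 9.42. Of these, 4 were above the background level described further on (KRT18, KRT19, EPCAM and GATA3). KRT18, at 9.42, read above VIM at 9.18. Of the 8, 3 rose (KRT18, KRT19 and EPCAM, by 0.35 to 0.41) and 2 fell (GATA3 by 0.73 and ERBB3 by 0.41). Among the mesenchymal-like markers VIM rose by 0.34 and CD44 fell by 0.35. The part of all these markers in the results below was not tested.

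Nuclear receptors are transcription factors that exchange coregulators when a ligand binds. Many of them, though not the corticosteroid receptors, bind short DNA elements built around the half-site AGGTCA. REV-ERBα, the product of NR1D1, lacks the helix that recruits coactivators and represses genes by bringing NCOR1 with the deacetylase HDAC3 to DNA, at elements that it shares with the activating ROR receptors. PPARs switch on fatty acid oxidation and lipid storage genes, and the estrogen-related receptors drive mitochondrial and energy genes without a known natural hormone.

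None of the 9 measured members passed the test in either direction (limma with Benjamini-Hochberg adjustment over all 14884 genes, threshold 0.05), where 9.49% of all genes passed. With 9 members that share amounts to less than 1 gene, so the count by itself sets them neither apart from nor alongside other genes. At an unadjusted p under 0.05 there were 2 members, PPARA and PPARG, against 22.8% of all genes. Of the 9 fitted log2 differences 7 were below 0 and 2 above, with a median of -0.17. Over all genes the median was 0.0039 and 49% were below 0. The fitted log2 differences ran from -0.28 to 0.06.

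The standard error of a member's log2 difference lay between 0.0787 and 0.12, and no member's 95% confidence interval reached below -0.53 or above 0.27. These intervals rest on a log2 reading of the deposited values and cover 1 probe set per gene. A probe set that reads mostly background can understate a change, and 6 of the 9 members were at the background level described further on. For these the interval bounds the reading and not the change in RNA. Of the 6, PPARG and ESRRA were not among the dimmest genes, since they read above 61.1% and 58.7% of all genes.

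**Figure D1:**
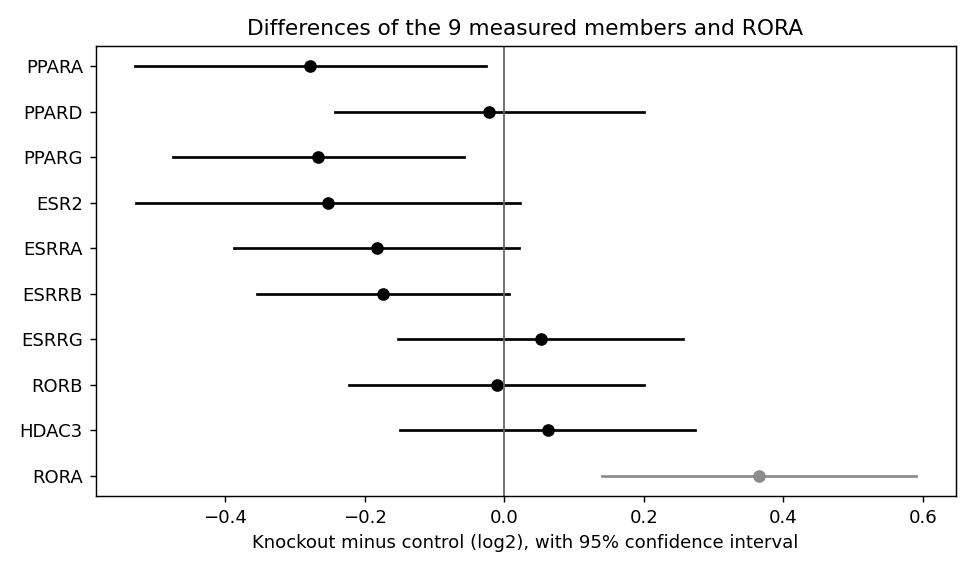
Fitted difference between knockout and control arrays for the 9 measured members and, in grey, RORA, on the log2 scale (x axis, negative where knockout arrays read lower). Points are limma estimates and lines their 95% confidence intervals, from 3 arrays per group. The intervals of PPARA and PPARG lie below 0 before adjustment for the number of genes, and RORA lies above it at 0.37. Both PPARG and RORA were at background level.

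The 3 PPAR genes each gave a lower mean in knockout arrays, and none passed the test. PPARA, the fasting-state activator of fatty acid oxidation, read 7.10, 7.43 and 7.22 (log2) on the control arrays and 7.11, 6.87 and 6.93 on the knockout arrays. The groups overlapped by the narrow margin of 1 knockout array, replicate 1, above control replicate 1. The difference was -0.28 ± 0.11 (log2, estimate ± SE, n = 3 each), and limma gave it an adjusted p of 0.174.

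PPARG, the receptor that directs fat cell formation and lipid storage, read 6.72, 6.94 and 6.83 on control and 6.50, 6.66 and 6.52 on knockout arrays. All 3 knockout values lay below all 3 control values. The log2 difference was -0.27 ± 0.091 (SE), with an interval from -0.48 to -0.06 and a limma adjusted p of 0.117. This was the smallest adjusted p among the members.

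PPARD, the widely expressed PPAR, read 9.30, 9.25 and 9.24 on control and 9.41, 9.10 and 9.22 on knockout arrays. The knockout values lay on both sides of the control values, and the difference of -0.02 ± 0.097 (log2, SE) had an adjusted p of 0.93 by limma. Its interval allows a change of up to 1.18-fold lower or 1.15-fold higher. Without knockout replicate 2 the sign of this small difference turned, to 0.05.

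Of the PPAR target genes measured here, CPT1A was the only one of 5 above the level of 7.07 that serves as background (the 95th percentile of hair shaft KRTAP genes, which are mostly silent in breast cells), while ANGPTL4, PLIN2, CD36 and CREB3L3 were at background level. All 5 measured genes of a list of 12 PPAR targets had a log2 difference below 0, between -0.22 and -0.09 with a median of -0.17, and none passed the limma test. CPT1A, the carnitine shuttle enzyme that admits fatty acids to mitochondria, read 8.68, 8.84 and 8.70 on control and 8.64, 8.49 and 8.44 on knockout arrays (adjusted p of 0.18). The groups did not overlap. ANGPTL4, a secreted inhibitor of lipoprotein lipase, differed by -0.17 (adjusted p of 0.316), again without overlap. PLIN2, which coats lipid droplets, and the fatty acid transporter CD36 belong to the same 5, as does CREB3L3. Over all genes 49% of the differences were below 0, and the groups did not overlap for 28.7%. The 5 genes come from the same 6 arrays and are not independent of one another, and a joint fall was not tested.

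**Figure D2:**
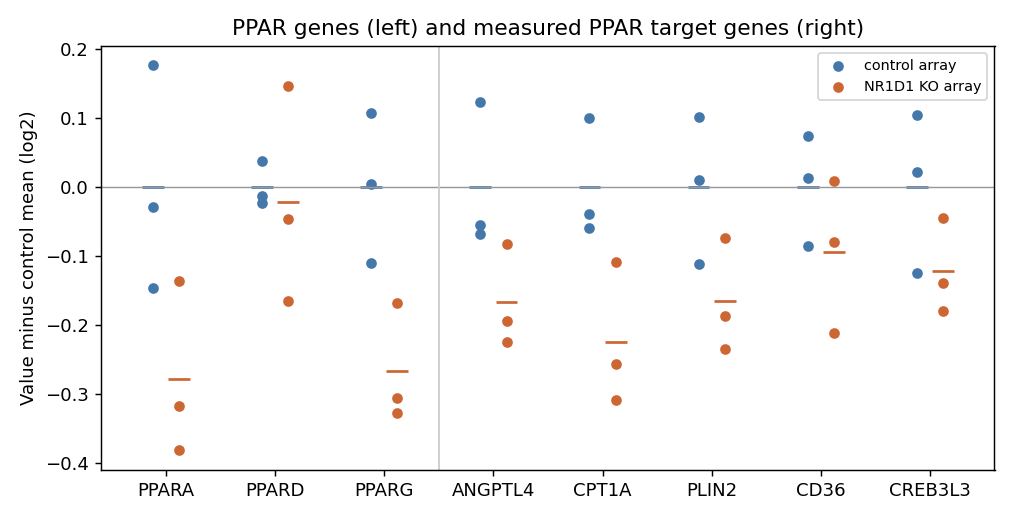
Deposited log2 values of the 3 PPAR genes and the 5 measured PPAR target genes, minus each gene's control mean (y axis, log2). Each point is 1 array and each bar a group mean (n = 3). Mean values of all 8 genes are lower in knockout arrays, most for PPARA and PPARG, and the 2 groups overlap for PPARA, PPARD, PLIN2, CD36 and CREB3L3.

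The estrogen receptor β gene and the 3 estrogen-related receptor genes did not pass the test either. ESRRA, a regulator of mitochondrial genes and a partner of the PPARGC1A coactivator, read 6.61, 6.74 and 6.65 on control and 6.56, 6.36 and 6.54 on knockout arrays. Every knockout value was below every control value, and the log2 difference was -0.18 ± 0.089 (SE, limma adjusted p of 0.272), or -0.12 without knockout replicate 2. ESRRB, known from stem cell self-renewal, read 5.26, 5.24 and 5.19 on control and 5.11, 5.08 and 4.98 on knockout arrays. These groups also did not overlap, with a log2 difference of -0.17 ± 0.079 (SE, limma adjusted p of 0.235), the member with the smallest standard error.

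ESR2, which encodes estrogen receptor β, read 5.36, 5.23 and 5.39 on control and 4.90, 4.99 and 5.33 on knockout arrays. Knockout replicate 3 sat within the control range and the other knockout arrays below it. The log2 difference was -0.25 ± 0.12 (SE, limma adjusted p of 0.263), and the spread of its knockout arrays (SD 0.225) was the widest of any member in either group. The difference was -0.17 without knockout replicate 1 and -0.38 without knockout replicate 3. ESRRG, the third estrogen-related receptor, read 4.60, 4.54 and 4.64 on control and 4.62, 4.78 and 4.54 on knockout arrays. Its difference was 0.05 ± 0.089 (log2, SE) with an adjusted p of 0.793 by limma, and without knockout replicate 2 it was -0.01.

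In all, the 3 control and 3 knockout values did not overlap for 3 of the 9 members, PPARG, ESRRA and ESRRB, each lower in knockout. Over all genes the groups did not overlap for 28.7%, and for 13.6% in the lower direction. The members' share of 33.3% is close to the first of these and above the second. With 9 members the count is too small to be a result about them. This count was 5 without control replicate 2 or without knockout replicate 1, where smaller groups separate more easily.

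RORB, a receptor of retina and brain that activates from the elements REV-ERBα represses, read 4.11, 3.88 and 4.12 on control and 4.003, 4.08 and 3.99 on knockout arrays. The groups overlapped, and the difference of -0.01 ± 0.093 (log2, SE) had an adjusted p of 0.961 by limma. Its sign turned when knockout replicate 3 or either control replicate 1 or 3 was left out. RORA, its relative among the clock genes and no member of the list, was at background level, with a mean of 4.59. It read 4.54, 4.42 and 4.25 on control and 4.86, 4.70 and 4.75 on knockout arrays. All 3 knockout values were higher, but the difference of 0.37 missed the threshold (limma adjusted p of 0.0548), and it passed only when each array was centred on its median (0.0484).

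HDAC3, the deacetylase that NCOR complexes activate, was the measured corepressor gene. It read 8.67, 8.88 and 8.73 on control and 8.72, 8.87 and 8.88 on knockout arrays. The groups overlapped across nearly their whole range, with a log2 difference of 0.06 ± 0.092 (SE, limma adjusted p of 0.755). The interval runs from 1.11-fold lower to 1.21-fold higher with all 6 arrays. The difference moved by over 1.5 times when any 1 array other than control replicate 3 was left out, between 0.015 without control replicate 1 and 0.12 without control replicate 2.

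The arrays came without detection calls, so the level at which a receptor cannot be told from background was set by genes that are mostly silent in breast cells. These were the 84 measured keratin-associated protein (KRTAP) genes of the hair shaft, whose means over the 6 arrays had a median of 4.41, a 90th percentile of 6.09 and a 95th percentile of 7.07. At the 95th percentile 6 of the 9 members were at background level, namely PPARG, ESR2, ESRRA, ESRRB, ESRRG and RORB, but so were 67.4% of all genes. At the 90th percentile, or with a reference chosen after seeing the data, 42 mostly silent hair, skin, testis and hormone genes, 4 remained, ESR2, ESRRB, ESRRG and RORB. At the 99th percentile PPARA joined the 6. Probe sets differ in brightness at equal RNA, so a reading at this level does not show that a gene is silent.

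Within the KRTAP genes, 36.9% read below RORB, 58.3% below ESRRG, 71.4% below ESRRB and 75% below ESR2. The share was 92.9% for both ESRRA and PPARG and 95.2% for PPARA. PPARD, at a mean of 9.26, and HDAC3, at 8.79, read above every KRTAP gene, of which the brightest stood at 8.67. These 2 members were therefore above background under every setting tried. Their differences between genotypes were among the smallest of the 9, as were those of RORB and ESRRG, which were at background level.

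**Figure D3:**
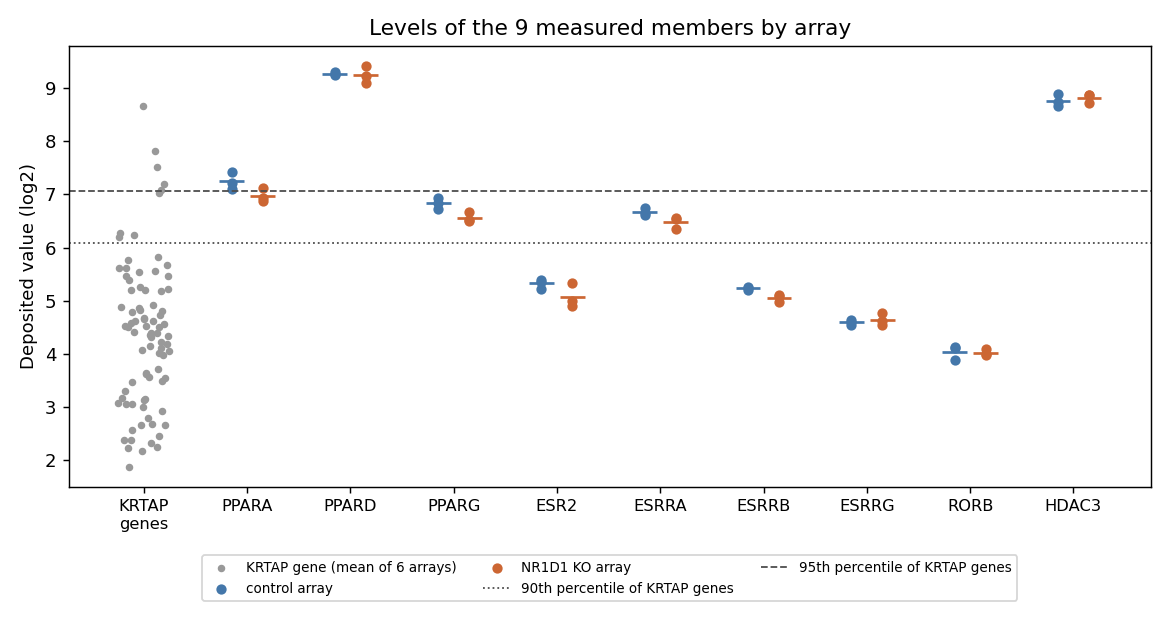
Deposited log2 values (y axis) of the 9 measured members on each control and knockout array, with bars at the group means (n = 3), beside the means over 6 arrays of the 84 KRTAP genes in grey. Lines mark the 90th and 95th percentile of the KRTAP genes, at 6.09 and 7.07. ESR2, ESRRB, ESRRG and RORB lie below both lines, PPARG and ESRRA between them, and PPARD and HDAC3 above all KRTAP genes.

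The partners and targets of the receptors were read from 7 lists. Of their 92 genes 59 were measured, and 2 rose and 3 fell in knockout cells, which is 8.47% against 9.49% of all genes. Among 13 measured subunits and deacetylases of corepressor complexes none passed the test, with 9 differences above 0, 4 below and a median log2 difference of 0.10. HDAC9, a class IIa deacetylase of muscle and immune cells, came nearest among those lower. At background level, it read 6.73, 6.84 and 6.81 on control and 6.60, 6.29 and 6.21 on knockout arrays, without overlap (limma adjusted p of 0.0506). SIN3A, the scaffold of another HDAC complex, read 8.65, 8.76 and 8.72 on control and 9.03, 9.02 and 8.93 on knockout arrays, all 3 higher (adjusted p of 0.0603). HDAC9 passed under 5 of 13 alternatives (adjusted p between 0.0153 and 0.147) and SIN3A under 2 (between 0.0137 and 0.185).

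Of 13 measured genes on a list of coactivators and bridging factors, called coactivators for short, 1 fell and none rose. The list had 7 differences above 0, 6 below and a median of 0.02. It also holds NRIP1 and LCOR, which are known as receptor corepressors. NRIP1 differed by -0.29 without overlap (limma adjusted p of 0.091) and LCOR by 0.14 with overlap (0.427). NCOA7, a receptor coactivator with a role in oxidation resistance, read 8.11, 8.23 and 8.31 on control and 7.78, 7.78 and 7.94 on knockout arrays. The groups did not overlap, and NCOA7 was 1.31-fold lower (limma adjusted p of 0.0339). It missed the threshold without any 1 control array (adjusted p between 0.0525 and 0.128) and without knockout replicate 1 (0.0883) or 2 (0.108).

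Of 7 measured targets of the oxysterol and bile acid receptors LXR and FXR 1 rose and 1 fell. The 7 log2 differences had a median of -0.18, with 3 above 0 and 4 below. MYLIP, an LXR-induced ubiquitin ligase that degrades the LDL receptor, read 7.82, 7.86 and 7.93 on control and 8.26, 8.41 and 8.30 on knockout arrays. It was 1.37-fold higher without overlap (limma adjusted p of 0.0118) and missed the threshold without control replicate 1 (0.0516). SCD, the fatty acid desaturase, read 12.19, 12.21 and 12.18 on control and 11.92, 11.79 and 11.69 on knockout arrays. It was 1.31-fold lower (limma adjusted p of 0.0271), and its second, dimmer probe set differed by -0.79 on the log2 scale. SCD missed the threshold without any 1 control array or without knockout replicate 2 or 3 (adjusted p between 0.0756 and 0.0886).

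Of 9 measured glucocorticoid receptor targets 1 rose and 1 fell, and 6 of the 9, both of these included, were at background level. The 9 log2 differences had a median of 0.16, with 7 above 0 and 2 below. KLF9, another of the 6 at background level, had the largest difference above 0, at 0.52 without overlap. It missed the threshold (limma adjusted p of 0.0547). SGK1, a kinase of ion transport and cell survival, read 6.01, 5.80 and 6.17 on control and 5.20, 5.17 and 5.37 on knockout arrays. It fell by 0.75 on the log2 scale without overlap (limma adjusted p of 0.00489) and passed under every alternative tried, with an adjusted p of at most 0.0256. Its mean of 5.62 was at background level, under the 90th percentile of the KRTAP genes as well, so no fold is given. FKBP5, a chaperone of steroid receptors, read 6.42, 6.58 and 6.64 on control and 6.91, 7.01 and 6.91 on knockout arrays. It rose by 0.40 on the log2 scale (limma adjusted p of 0.0281) from a mean of 6.75 that was also at background level, and missed the threshold without any 1 of the 6 arrays (adjusted p between 0.0535 and 0.0956).

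None of 7 measured genes of retinoic acid and vitamin D response passed the test, with 1 difference above 0 and 6 below, and 6 of the 7 were at background level, RARRES1 and RDH10 among them. RARRES1, a retinoic acid-induced gene, read 4.08, 4.02 and 4.28 on control and 3.76, 3.12 and 3.82 on knockout arrays (limma adjusted p of 0.098), at a level below the median of the KRTAP genes. RDH10, which makes retinal from vitamin A, differed by -0.16 (log2, adjusted p of 0.288). The groups overlapped for neither gene.

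**Figure D4:**
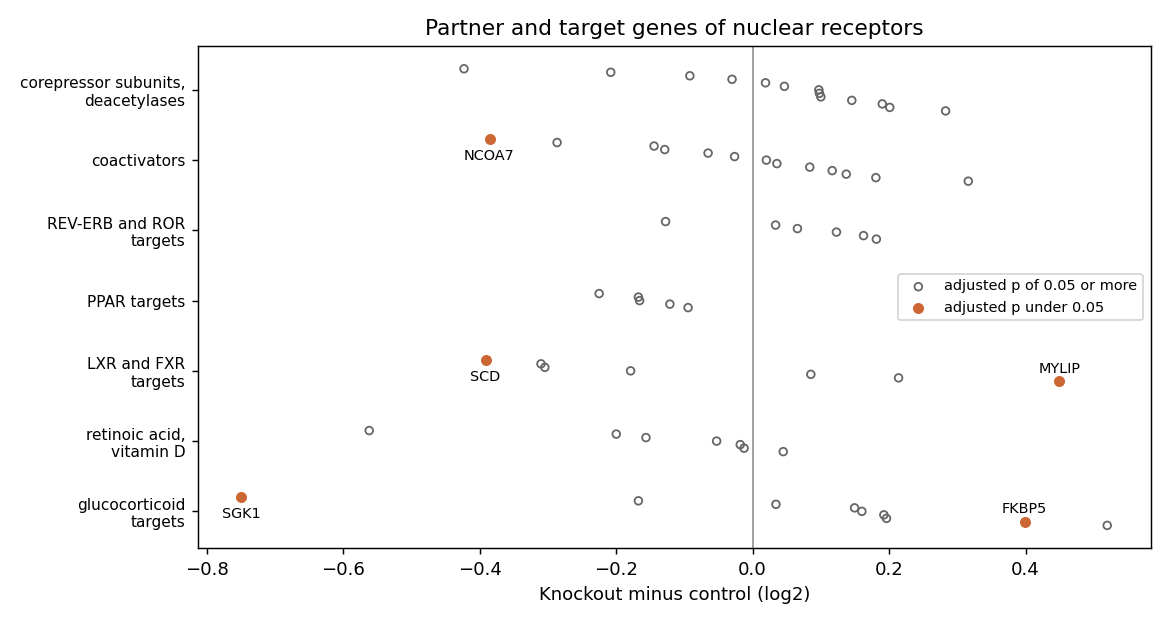
Fitted log2 difference between knockout and control arrays (x axis) of the 59 measured partner and target genes in 7 lists, 1 circle per gene and list. Filled circles passed an adjusted p of 0.05 (limma). These are NCOA7, SCD and SGK1, lower in knockout, and MYLIP and FKBP5, higher.

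None of 6 measured REV-ERB and ROR target genes passed, with 5 differences above 0 and 1 below. At background level were 3 of the 6, namely BMAL1, which is the gene below 0, and ELOVL3 and LPL, both above 0. NPAS2, a clock activator, differed by 0.16 (limma adjusted p of 0.243) and CLOCK by 0.18 (0.296), each without overlap between the groups. BMAL1, the classical REV-ERB target, is given with its values known beforehand. At background level, it read 6.55, 6.60 and 6.59 on control and 6.41, 6.50 and 6.45 on knockout arrays, all lower, with a log2 difference of -0.13 ± 0.075 (SE, limma adjusted p of 0.37).

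The binding elements are shown because REV-ERBα acts through them. RefSeq windows of 250 bases before to 50 after each annotated start (GRCh38.p14) were searched on both strands for the element TAGGTCA, which contains the plain half-site, and for its variants TGGGTCA or else TAGGTTA, each with an adenine at the third base before it. Any of the 3 was found in 1.65% of 35116 windows, from 559 genes. Matches are listed only for the measured members, REV-ERB and ROR target genes and corepressor genes. In these sets 1 of 29, 2 of 7 and 2 of 23 windows held an element, and windows of 1 gene can overlap. BMAL1 holds a pair of elements around its start (chr11:13277771-13277800 and chr11:13277807-13277836, + strand), CLOCK 1 (chr4:55546130-55546159, gene on the - strand), HDAC9 1 (chr7:18495609-18495638, + strand) and, alone among the 9 members, PPARG 1 (chr3:12351272-12351301, + strand). Each is printed 5′ to 3′ on the gene's strand, with the element in capitals.
BMAL1, element from 9 bases before the start: attggtcggaAAGTAGGTTAgtggtgcgac
BMAL1, element from 28 bases after the start: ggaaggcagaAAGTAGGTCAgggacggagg
CLOCK, on the other strand, from 217 bases before: ctaggccttgTGACCCACTTtattcctgtc
HDAC9, on the other strand, from 130 bases before: cggccatgctTGACCTATTTttggctcagg
PPARG, from 135 bases before the start: gacactgaacATGTGGGTCAccggcgagac

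The 4 genes with such an element in the sets listed went different ways in the fitted values. BMAL1, HDAC9 and PPARG read lower in knockout arrays and CLOCK higher, and none of the 4 passed the test. The plain half-site AGGTCA was found in 8 of the 29 windows of the 9 members, or 27.6%, against 13.8% of all windows. Windows of 1 gene overlap, so the same site of ESR2, and likewise of PPARG, was counted in more than 1 window. These 8 belong to 3 genes, PPARG, ESR2 and ESRRG, which have 6, 5 and 8 of the 29 windows. By gene, the half-site was found for 3 of the 9 members, against 4513 of 27305 genes over all windows. PPARG has a pair of half-sites before its first start (chr3:12287139-12287168 and chr3:12287172-12287201, + strand), shown with the half-site in capitals as the densest case among the members.
PPARG, half-site from 217 bases before the start: cccactttggacAGGTCAcgatggacagcg
PPARG, half-site from 184 bases before the start: caggaaaagaaaAGGTCActgtctacccaa

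The windows of HDAC3, PPARA, PPARD, ESRRA, ESRRB and RORB did not contain these letters. A match is a description of the sequence and no evidence of binding, and an absent match says only that the letters are not in that window.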

How the data were processed

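Per the labels' protocols, total RNA was converted with a whole-transcript kit, biotin-labelled and read on GeneChip arrays. The authors deposited a single table, whose values were taken as log2 from their range of 1.16 to 13.75. The array medians lay close together, at 5.18 to 5.22, as in values already normalized between arrays. How arrays were scanned, corrected and summarized is not stated in the labels used here. An error in the scale would change every fold.

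Of 53617 probe sets, 16098 carried a single gene symbol in GEO's platform annotation. Probe sets with several symbols were left out, so a member named only on such a probe set would count as unmeasured. The one with the highest mean was kept per gene. Groups came from the labels, and limma 3.58.1 (R 4.3.3) compared them with a constant prior, two-sided, with Benjamini-Hochberg adjustment over 14884 genes and no filter. The fit was also tested on simulated data. The first choice of background reference, olfactory receptor genes, had 1 named member, so taste receptor, KRTAP and defensin genes were used, of which only KRTAP genes were named. By the rule, the text names every measured member, RORA and, from each list, up to 4 genes that passed the test or else the 2 of smallest p. PLIN2, CD36, CREB3L3, NRIP1, LCOR, KLF9, BMAL1, ELOVL3, LPL and single cell type markers were named outside it, with their values seen. Members and lists were chosen with earlier results of these data known. Alternatives are given in the closing section. Figures were drawn with matplotlib 3.10.9.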

Additional observations from a re-analysis of the deposited data

How the results depend on the processing

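No member passed the threshold under any of 14 alternatives. These were a second quantile normalization, centring each array on its median, a filter on the dimmest 25% of genes (which removed RORB and ESRRG among the members, and RORA), the mean of a gene's probe sets, each probe set alone, a trend and robust prior, array weights, a replicate block, and leaving out each array. With 1 array left out, the genes called over the whole table numbered 336 to 518 higher and 387 to 531 lower, against 706 each way with all arrays. They fell by over 1.5 times without any 1 control array or knockout replicate 2. In these runs the fitted log2 difference ran from -0.014 to 0.10 for ESRRG, from -0.11 to 0.050 for PPARD, from -0.089 to 0.033 for RORB, from 0.015 to 0.12 for HDAC3, from -0.38 to -0.17 for ESR2 and from -0.22 to -0.12 for ESRRA, and 3 to 5 members had groups that did not overlap. In the same runs 0 to 1 genes were called as higher LXR and FXR targets, as lower ones, as lower coactivators and as lower corepressor genes, and 0 as higher glucocorticoid targets. Glucocorticoid targets called higher numbered 2 with the dimmest genes removed, with the trend and robust prior or with array weights, and LXR and FXR targets called lower 2 with that prior. Called corepressor genes numbered 1 lower with quantile normalization again or with array weights, and coactivators 1 higher with array weights. With the trend and robust prior or without the dimmest genes, corepressor genes numbered 1 higher and 1 lower and coactivators 1 higher. With the replicate number as a block, 498 genes were called higher and 552 lower over the whole table, 0 glucocorticoid targets were called higher and 0 LXR and FXR targets lower, since FKBP5 (adjusted p of 0.0533) and SCD (0.0568) missed the threshold. The labels tie same-numbered arrays by nothing but the number. Their deviations from the group means correlated at 0.05, 0.07 and -0.11, and those of differently numbered arrays at -0.13 to 0.08. With 3 arrays per group, these values cannot show whether same-numbered arrays shared a culture or a batch. Members at background level numbered 4 to 7 over the percentiles tried, and 4 with the second set of reference genes, which was chosen after seeing the data. The number of arrays, and readings near background for ESR2, ESRRB, ESRRG and RORB, limit what could be seen.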
